A study of Mus musculus with 24 samples.

Results

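The AP-1 genes *Fos*, *Fosb*, *Fosl2*, *Jun*, *Junb* and *Jund* were followed through RNA of the mouse dorsal hippocampus. They were chosen by symbol, 6 genes among 51826 counted, and each symbol matched 1 identifier in the GENCODE M21 annotation on GRCm38. The counts came from 24 libraries in 7 groups of C57BL/6J mice that the labels give as male and aged 2 to 4 months; the methods name both sexes for the study as a whole. CBP KIX/KIX mice carry 3 substitutions in the KIX domain of the coactivator CBP in all their cells and were compared with wildtype (WT) littermates, both bred from heterozygous parents. RNA-Seq 1 held 3 WT homecage mice, 3 WT mice after the Morris water maze (MWM) and 3 CBP KIX/KIX mice trained likewise. RNA-Seq 2 held 3 WT homecage mice, 4 WT mice after contextual fear conditioning (CFC), 4 CBP KIX/KIX mice after CFC and 4 CBP KIX/KIX homecage mice. Tissue was taken 1 h after 3 days of MWM training or after CFC with 1 foot-shock. RNA-Seq 1 used ribosomal RNA depletion and RNA-Seq 2 polyA selection, so that task, library type and sequencing run cannot be told apart between the experiments. The labels number the replicates and do not name animals, so p-values measure the spread between these samples. Counts per gene do not show the substitutions.

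AP-1 is a dimeric transcription factor. Fos proteins cannot pair with themselves and need a Jun partner, whereas Jun proteins also pair with each other, and the dimers bind a short palindrome in enhancers and promoters. *Fos*, *Fosb* and *Junb* are immediate early genes that neurons switch on within minutes of activity, and *Fos* is the usual marker of recently active hippocampal cells. The KIX domain is the surface of CBP that docks phosphorylated CREB, and the *Fos* promoter with its cyclic AMP response element (CRE) is a classic site of CREB action.

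On GRCm38 (GENCODE M21) *Fos* spans chr12:85473890-85477273 on the plus strand, *Fosb* chr7:19302696-19310051 on the minus strand and *Fosl2* chr5:32135801-32157842 on the plus strand. *Jun* spans chr4:95049034-95052222 and *Junb* chr8:84974484-84978718, both on the minus strand, and *Jund* chr8:70698949-70700616 on the plus strand. The exons in that annotation, untranslated regions included, add up to 2352 bases in *Fos*, 6243 in *Fosb*, 9680 in *Fosl2*, 3189 in *Jun* and 2301 in *Junb*.

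The promoters of the members are shown because 3 of the genes moved together with training and the series asks about a CREB coactivator. All 6 had an entry in the RefSeq promoter table (GRCm38.p6), and the 250 bases before each start were searched on both strands for the full CRE TGACGTCA, the CRE core TGACG, the AP-1 element TGAGTCA, its variant TGACATCA, the TATA box TATAAA, the EGR site GCGTGGGCG and the CArG box. A full CRE also holds the core. The last 120 bases before the start of 4 genes follow, 5′ to 3′ on the strand of the gene, with matches in capitals:
Fos (chr12:85473770-85473889, plus strand): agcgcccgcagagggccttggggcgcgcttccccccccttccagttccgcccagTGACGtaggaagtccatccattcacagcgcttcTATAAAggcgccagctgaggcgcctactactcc
Fosb (chr7:19310046-19310165, minus strand): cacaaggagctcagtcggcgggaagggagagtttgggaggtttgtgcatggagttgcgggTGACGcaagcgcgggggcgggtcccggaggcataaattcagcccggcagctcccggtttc
Junb (chr8:84978749-84978868, minus strand): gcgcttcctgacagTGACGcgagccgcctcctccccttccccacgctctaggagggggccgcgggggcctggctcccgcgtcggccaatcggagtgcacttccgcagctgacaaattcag
Jun (chr4:95052223-95052342, minus strand): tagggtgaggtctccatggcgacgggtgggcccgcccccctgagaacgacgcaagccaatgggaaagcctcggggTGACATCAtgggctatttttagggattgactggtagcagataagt

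The capitals mark the CRE core in *Fos*, *Fosb* and *Junb*, the TATA box in *Fos* and the variant AP-1 element in *Jun*. *Fos* held 2 CRE cores, at bases -129 to -125 and -66 to -62 from the start. *Fosb* held 1 at -60 to -56 and *Junb* 1 at -106 to -102. The variant AP-1 element of *Jun* lay at -45 to -38. None of the 7 motifs was found in the 250 bases before the RefSeq starts of *Fosl2* and *Jund*. The last 120 of these bases lay at chr5:32136352-32136471 for *Fosl2* and chr8:70697619-70697738 for *Jund*. The *Fosl2* stretch lies inside the GENCODE span given above, and the *Jund* stretch ends well before its GENCODE start at 70698949. The bases directly before the GENCODE starts of these 2 genes were therefore not searched. Over the 27025 genes of the table, 17.9% held a CRE core in this window, 1.62% a full CRE, 4.43% the AP-1 element, 3.02% its variant, 13% the TATA box, 1.4% the CArG box and 0.54% the EGR site. The matches describe letters in a window and were not tested for binding.

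*Jund*, whose product is the Jun protein usually found at steady levels in resting tissue, was listed at 0 counts in all 24 libraries. Levels are given as counts scaled to the upper quartile of each library (CPM, from here on), and a floor of 3 counts was 0.0457 to 0.195 CPM over the libraries. Its antisense neighbour *Gm11175*, which shares 877 of the 1668 exonic bases of *Jund* (52.6%), was listed at 0 as well. The cause of this zero was not tested, and it is no measure of the transcript. *Jund* was therefore in no fit, and 5 of the 6 members were tested in every comparison. *Jun* shares 232 exonic bases (7.28%) with the antisense gene *Junos*, which had 22 to 116 counts per library, and *Junb* shares 173 (7.52%) with *Prdx2*, which had 2671 to 9353. Whether counting used the strand is not given in the sources used here. Isoforms such as the truncated ΔFosB are not separable in counts per gene.

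The libraries held 38174044 to 65709282 counts in RNA-Seq 1 and 15385836 to 46056290 in RNA-Seq 2, and each of the 5 members other than *Jund* had at least 76 counts in every library. Neuronal markers were abundant in every group, at a sum of 4206 to 5944 normalised CPM over 5 genes, and no marker gene of any list was at 0 throughout a group. *Crebbp*, the mutated gene, did not pass in any comparison, with log2 fold changes of -0.01 for genotype after learning and -0.06 for learning in WT mice. Whether a difference in bulk tissue comes from fewer cells of a type or from less RNA per cell cannot be told apart. CBP KIX/KIX homecage replicate 3 stood apart in the members themselves. Over all genes it did not stand alone: chi-square per gene between 2 libraries was 10.7 for replicates 3 and 4 of that group. It was 11.7 for replicates 1 and 2, and 22.4 to 29.1 between these pairs. The measure uses raw counts and grows with depth. Replicates 3 and 4 held 16567226 and 15940061 counts, and replicates 1 and 2 held 36896142 and 46056290. In RNA-Seq 1 WT homecage replicate 3 was at 91.4 and 80.6 to replicates 1 and 2 of its group, which were at 16.2 to each other. That library is in both comparisons of MWM with homecage mice. Choroid plexus markers, 8 genes that mark tissue next to the hippocampus, ranged from 28.8 to 4130 CPM in sum over the libraries of RNA-Seq 2 and from 141 to 2890 CPM in RNA-Seq 1, and their part in the results was not tested.

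Levels between genes were compared per kilobase of exon, as CPM divided by exon length. In WT homecage mice of RNA-Seq 1 the order of the mean levels was *Junb* at 43 ± 7.49 CPM per kb (SD, n = 3), *Jun* at 26.6 ± 1.67, *Fosl2* at 13.3 ± 3.33, *Fos* at 4 ± 0.514 and *Fosb* at 1.57 ± 0.375. No neighbours in that order overlapped. The same order held in both MWM groups. In WT homecage mice of RNA-Seq 2 *Jun* led with 30 ± 0.944 CPM per kb (SD, n = 3), followed by *Junb* at 13.8 ± 0.962, *Fosl2* at 4.89 ± 0.272, *Fos* at 1.73 ± 0.361 and *Fosb* at 0.963 ± 0.144. After CFC *Fos* stood above *Fosl2*, at 11.9 ± 1.63 against 5.85 ± 0.0754 CPM per kb (SD, n = 4), in 4 of 4 WT libraries. There the ranges of *Jun* and *Junb* overlapped, at 32.2 ± 2.07 and 31 ± 2.10, with *Jun* above *Junb* in 4 of 4 libraries. In CBP KIX/KIX mice after CFC *Fos* was above *Fosl2* as well, in 4 of 4 libraries, while *Jun* and *Junb* lay apart at 36.2 ± 2.69 and 24.5 ± 0.752. Of the summed CPM per kb of the 5 genes, *Fos* made up 3.38% ± 0.764 (SD, n = 3) in WT homecage mice of RNA-Seq 2 and 14.2% ± 1.19 (SD, n = 4) after CFC, and *Jun* 58.4% ± 0.727 and 38.7% ± 0.606. In RNA-Seq 1 the share of *Fos* was 4.54% ± 0.481 (SD, n = 3) in homecage mice and 7.46% ± 0.55 (SD, n = 3) after the MWM.

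**Figure D1:**
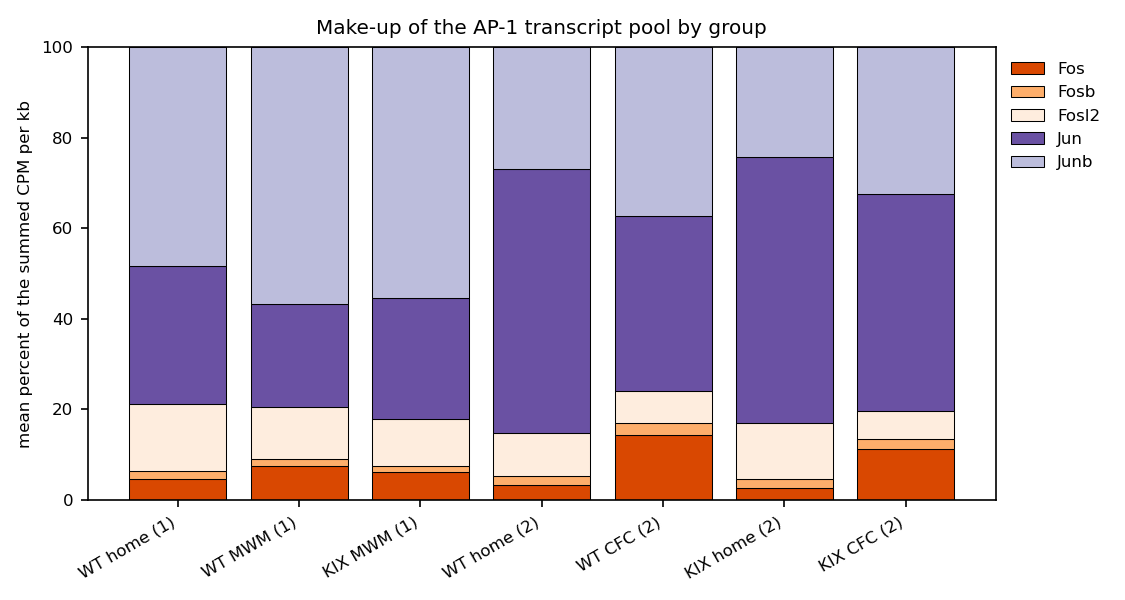
Mean percent of the summed CPM per kb of 5 AP-1 genes (vertical axis) in each of the 7 groups (horizontal axis, with the experiment in parentheses, KIX standing for CBP KIX/KIX); the homecage bar of CBP KIX/KIX mice is over 3 libraries, without replicate 3. The *Fos* segment is 3.38% in WT homecage mice and 14.2% after CFC in RNA-Seq 2, and *Jun* and *Junb* take most of every bar.

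CBP KIX/KIX homecage replicate 3 is described first because it touches every test in RNA-Seq 2. *Fos* stood at 105 CPM in it and at 2.55, 1.64 and 4.32 CPM in the other 3 libraries of its group, 37-fold over their mean. *Fosb* was 93.4 CPM against 5.58, 5.50 and 7.72, and *Junb* 181 CPM against 29.5, 23.6 and 25.7. This 1 homecage library was above every trained library of RNA-Seq 2 for all 5 genes, by 3.48-fold for *Fos* and 6-fold for *Fosb* over the highest WT CFC library. *Fosl2* was 144 CPM against 37, 53.7 and 73.4, and *Jun* 158 CPM against 102, 90.1 and 73.8, smaller steps of 2.63-fold and 1.78-fold over the mean of the others. Its summed choroid plexus markers were 2587 CPM, the highest of its group, and its astrocyte markers 1189 CPM. The group as a whole ranged from 646 to 1904 CPM in astrocyte markers where the other groups of RNA-Seq 2 ranged from 573 to 687. The part of these markers in the result was not tested. In the fit of all 15 libraries the library enters the shared spread, so the RNA-Seq 2 calls are given with it and without it.

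**Figure D2:**
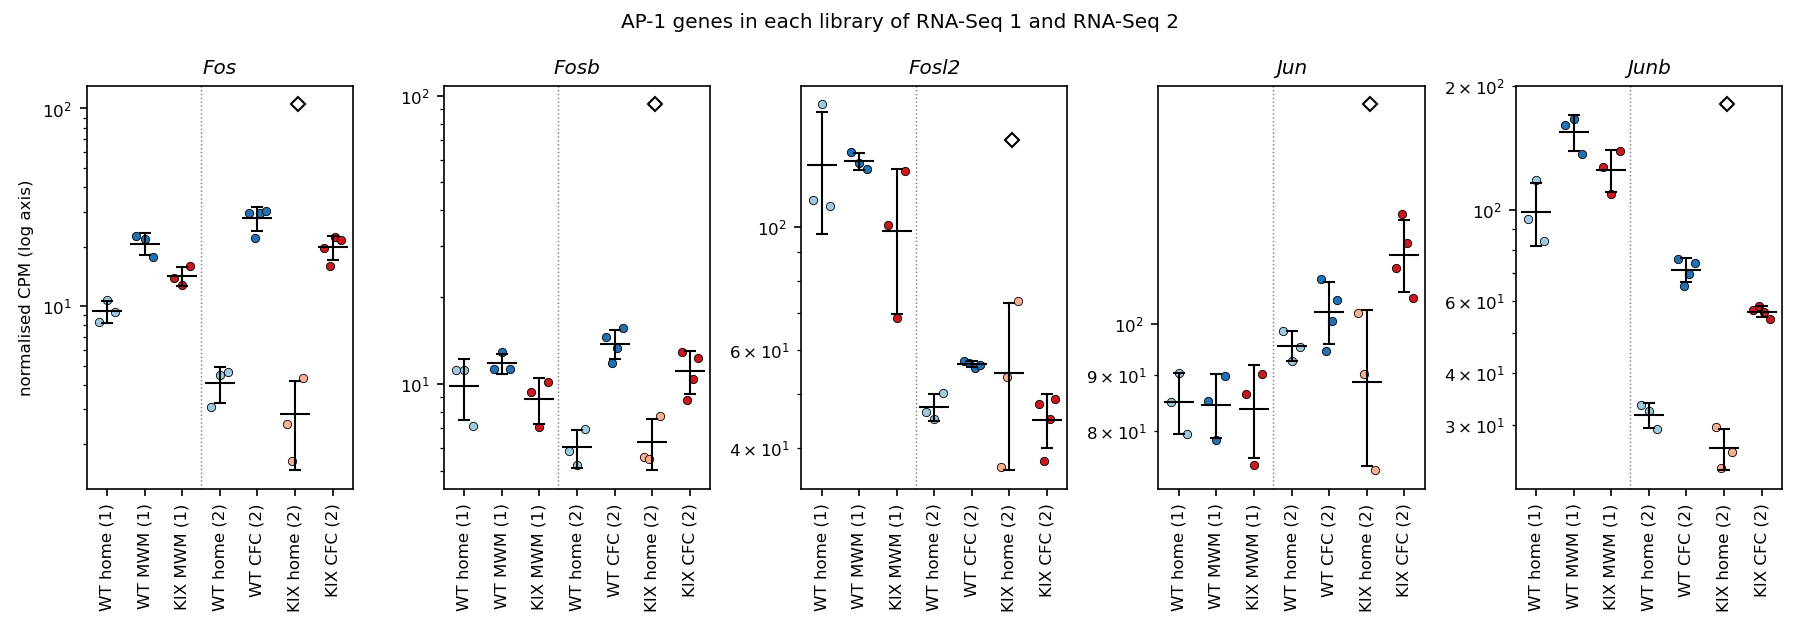
Normalised CPM on a log axis (vertical) of 5 AP-1 genes in every library, by group (horizontal, with the experiment in parentheses); the horizontal line is the group mean and the bar its SD. The open diamond is CBP KIX/KIX homecage replicate 3, left out of its group's mean and SD; it lies at 105 CPM for *Fos*, above all other libraries.

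In WT mice *Fos* rose after the MWM, a call lost with the replicate block, and *Fos*, *Junb* and *Fosb* rose after CFC once the library that stood apart was left out. With that library 0 of 5 members passed after CFC. *Fos*, whose protein binds DNA only with a Jun partner, was 8.27, 10.7 and 9.31 CPM in WT homecage mice of RNA-Seq 1 and 22.6, 22 and 17.7 CPM after the MWM. The groups did not overlap. Its log2 fold change was 1.14 (SE 0.14, adjusted p = 0.0125, edgeR's quasi-likelihood test with Benjamini-Hochberg adjustment), 2.20-fold in means, and it was 1 of 2 genes that rose among 22276 tested, 0.00898%. DESeq2 called *Fos* and *Junb*, where it called 0.175% of genes higher. With replicate number as a block its adjusted p was 0.0794, and without WT homecage replicate 1, WT MWM replicate 1 or WT MWM replicate 2 it was 0.108, 0.112 and 0.114. In WT mice of RNA-Seq 2 *Fos* was 3.09, 4.46 and 4.65 CPM in the homecage and 29.8, 22.2, 29.7 and 30.2 CPM after CFC, 6.87-fold in means. Again no trained library reached down to a homecage library. The log2 fold change was 2.79 with all 15 libraries in the fit (SE 1.10, unadjusted p = 0.0223, adjusted p = 1) and 2.79 without CBP KIX/KIX homecage replicate 3 (SE 0.24, adjusted p = 4.19e-05, edgeR).

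*Junb*, whose product is a Jun protein with weaker activating power than c-Jun, followed *Fos*. It was 94.9, 118 and 84.2 CPM in WT homecage mice of RNA-Seq 1 and 161, 166 and 136 CPM after the MWM. All trained libraries were above all homecage libraries, but the log2 fold change of 0.64 did not pass (SE 0.13, adjusted p = 0.181, edgeR's quasi-likelihood test). Without WT homecage replicate 3, whose normalisation factor of 0.896 was above those of the other homecage libraries of that experiment (0.757 and 0.758), it was 0.53 with an adjusted p of 0.0187, and 2418 genes were called in place of 3. An unadjusted p under 0.05 was reached by 2 of 5 members, *Fos* and *Junb*, and by 10.9% of all genes. In RNA-Seq 2 *Junb* was 33.6, 32.3 and 29.3 CPM in the WT homecage and 75.9, 65.2, 69.9 and 74.4 CPM after CFC, 2.25-fold in means. Its log2 fold change was 1.16 both with all libraries (SE 0.54, adjusted p = 1) and without the library that stood apart (SE 0.08, adjusted p = 8.51e-06, edgeR).

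*Fosb*, which encodes both full FosB and the stable ΔFosB that builds up with repeated activity, was 11.2, 11.2 and 7.12 CPM in WT homecage mice of RNA-Seq 1 and 11.2, 12.8 and 11.2 CPM after the MWM. The lowest trained library was just above the highest homecage library, and the log2 fold change of 0.27 (SE 0.18, adjusted p = 0.583, edgeR) did not pass. In RNA-Seq 2 *Fosb* was 5.85, 5.21 and 6.98 CPM in the WT homecage and 14.5, 11.8, 13.3 and 15.6 CPM after CFC, with no overlap. Its log2 fold change was 1.21 (SE 0.80, adjusted p = 1, with all libraries), and without the library that stood apart the SE was 0.16 and the adjusted p = 0.00356 (edgeR).

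*Fosl2*, which encodes Fra-2, a Fos protein that lacks the strong activation domain of c-Fos, was 46.5, 45.2 and 50.3 CPM in the WT homecage and 57.4, 56.8, 55.7 and 56.4 CPM after CFC. All 4 trained libraries lay above the 3 homecage libraries, a log2 difference of 0.26 that did not pass without the library that stood apart (SE 0.15, adjusted p = 1, edgeR) or with it (SE 0.30). In RNA-Seq 1 it was 112, 166 and 109 CPM in the homecage and 137, 130 and 127 CPM after the MWM, with a log2 fold change of 0.02 (SE 0.19). *Jun*, the founding Jun gene, lay at 79.6 to 90.3 CPM in the homecage and 78.6 to 89.8 CPM after the MWM, and at 92.7 to 98.7 CPM and 94.5 to 110 CPM around CFC. Its groups overlapped in both experiments, with log2 fold changes of -0.01 (SE 0.10) and 0.10 (SE 0.09, and 0.17 with the library that stood apart). The sign in RNA-Seq 1 turned with TMM normalization, to 0.04.

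In RNA-Seq 2, 3 of the 5 members passed for WT CFC against homecage without CBP KIX/KIX homecage replicate 3, where 17 of 19066 genes rose, 0.0892%, and 0 fell. With all 15 libraries 0 members passed, with 2 at an unadjusted p under 0.05 beside 2.39% of all genes, and 0 of 18851 genes passed, 0% (edgeR). DESeq2 with all libraries also called 0 members and gave no adjusted p for 3 of them. A fit of the 7 WT libraries of RNA-Seq 2 alone, which never holds the library that stood apart, called 3 members and 0.116% of genes higher. Ranges of trained and homecage mice lay apart for 4 of 5 members after CFC and for 3 of 5 after the MWM. In the upward direction this was so for 2.57% and 3.96% of 22408 genes.

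When the WT mice of both experiments were fitted together, including a term for experiment and 3 estimated nuisance factors (RUVr, from residuals), *Fos* rose by a log2 fold change of 1.93 (SE 0.20, adjusted p = 0.000405), *Junb* by 0.90 (SE 0.07, adjusted p = 2.47e-05) and *Fosb* by 0.76 (SE 0.09, adjusted p = 0.00153, all edgeR's quasi-likelihood test). These 3 genes were above the homecage mean of their experiment in 7 of 7 trained mice. Among all 20901 genes tested 0.407% rose. *Fosl2* had 0.15 (SE 0.07, adjusted p = 0.265) with 6 of 7 mice above, and *Jun* 0.05 (SE 0.04, adjusted p = 0.574) with 5 of 7. Without the RUVr factors *Fos* and *Junb* passed, where 0.0431% of genes rose, and *Fosb* had an adjusted p of 0.316. With the replicate block *Fosb* had an adjusted p of 0.253 without the factors, and with them 4 members passed, *Fosl2* with 0.0382, where 1.64% of genes rose. The median log2 fold change of the 5 members was 0.76, beside -0.02 over all genes tested. Neither this fit nor that of genotype after learning holds the CBP KIX/KIX homecage libraries.

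Dentate granule cell markers (3 genes, sum) were 348 to 402 CPM in WT homecage mice of RNA-Seq 1 and 261 to 283 CPM after the MWM, and endothelial markers (3 genes) 136 to 164 and 93.2 to 123 CPM. The part of these markers in the MWM result was not tested. Around CFC in WT mice the dentate markers overlapped, at 167 to 217 and 184 to 217 CPM. Choroid plexus markers ranged from 28.8 to 1655 CPM in those homecage mice and from 36.2 to 4130 CPM after CFC, and their part was not tested either.

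The log2 change of *Fos* with training was lower by 1.65 in the MWM experiment than in the CFC experiment without the library that stood apart (SE 0.29, unadjusted p = 8.95e-06, adjusted p = 0.0671, edgeR), and by 1.66 with it (SE 1.21, adjusted p = 0.734). For the other 4 members the difference between the experiments was -0.94 for *Fosb*, -0.52 for *Junb*, -0.23 for *Fosl2* and -0.11 for *Jun* without that library, and 0 of 5 members passed (0% of all genes). With it these 4 values were -0.94, -0.52, -0.24 and -0.11, and 0 members passed. An unadjusted p under 0.05 was reached by 3 of the 5 and by 7.81% of all genes. Since the library types differ, this contrast is of experiments and not of tasks.

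**Figure D3:**
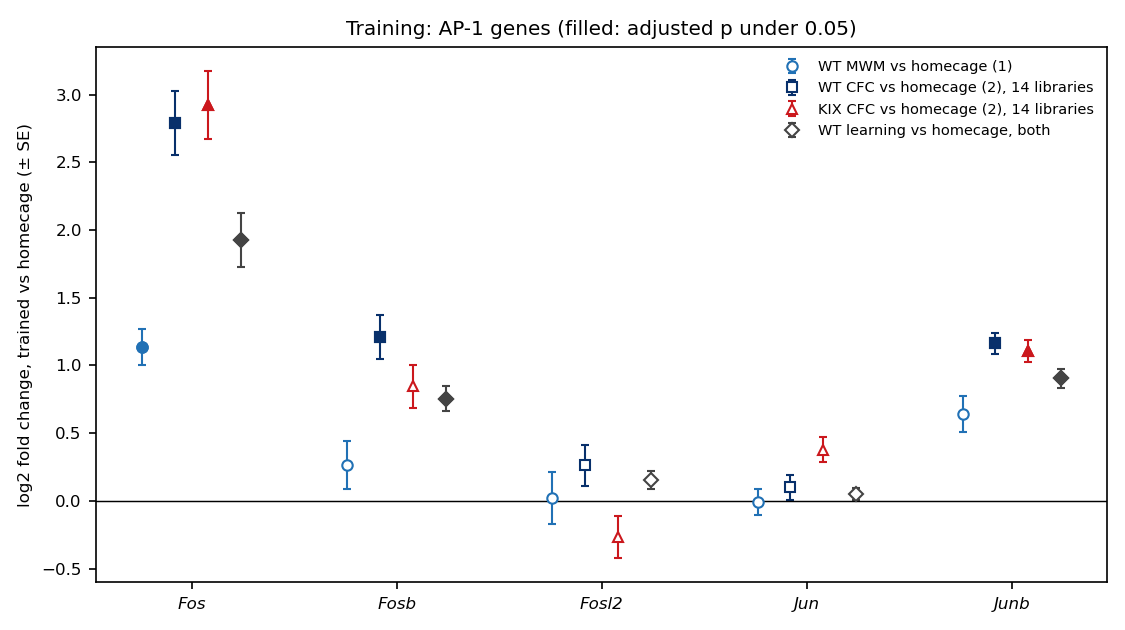
Log2 fold change of trained over homecage mice with its SE (vertical axis) for 5 AP-1 genes (horizontal axis) in 4 comparisons; filled symbols have an adjusted p under 0.05 (edgeR), and the RNA-Seq 2 comparisons leave out CBP KIX/KIX homecage replicate 3. *Fos* is at 1.14 in the MWM experiment and at 2.79 and 2.92 for CFC in WT and CBP KIX/KIX mice, while *Jun* and *Fosl2* lie between -0.27 and 0.38.

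In CBP KIX/KIX mice *Fos* and *Junb* rose after CFC without the library that stood apart. After the MWM *Fos* was 13.9, 12.8 and 15.9 CPM in the mutants, between the WT homecage libraries (at most 10.7) and the WT MWM libraries (at least 17.7) and overlapping neither; 8.97% of genes were above WT homecage mice in this way. Against WT homecage mice, the only homecage mice of that experiment, its log2 fold change was 0.60 (SE 0.14, adjusted p = 0.0585, edgeR's quasi-likelihood test). *Junb* had 0.34 (SE 0.13, adjusted p = 0.14) and *Fosl2* -0.39 (SE 0.19, adjusted p = 0.225). By edgeR 0 of 5 members passed (0% of genes were higher), 2 had an unadjusted p under 0.05 beside 25.5% of all genes, and 2 passed with DESeq2, which called 6.02% higher. That comparison joins genotype and training.

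In RNA-Seq 2 the CBP KIX/KIX mice have homecage mice of their own. After CFC *Fos* was 19.8, 16, 22.4 and 21.5 CPM, against 2.55, 1.64 and 4.32 CPM in the homecage without replicate 3. Its log2 fold change was 2.92 (SE 0.25, adjusted p = 4.39e-05, edgeR). *Junb* was 57.2, 58.2, 56.3 and 54.2 CPM after CFC, against homecage values of 23.6 to 29.5 CPM without replicate 3, with a log2 fold change of 1.11 (SE 0.08, adjusted p = 1.89e-05). Both genes rose without any overlap of the groups. *Fosb*, at 12.9, 8.82, 10.4 and 12.3 CPM against 5.50 to 7.72 CPM, had 0.85 (SE 0.16, adjusted p = 0.0829), and 0.84 with an adjusted p of 0.0142 when replicate number was a block, where 0.0997% of genes rose. *Jun*, at 106 to 126 CPM against 73.8 to 102 CPM, had 0.38 (SE 0.09, adjusted p = 0.199), and *Fosl2*, at 37.8 to 49 CPM against 37 to 73.4 CPM, had -0.27 (SE 0.15, adjusted p = 0.569). So 2 of 5 members passed, where 15 of 19066 genes rose, 0.0787%. Ranges lay apart for 4 of 5 members, all but *Fosl2*, without replicate 3, and for 0 of 5 with it. Without it 3.53% of genes lay apart in that direction. Replicate 3 was left out for its values of these same members, so their counts without it are no independent support. The share over all genes is not like for like, since those genes were not picked through that library. DESeq2 called the 4 members other than *Fosl2* without that library, and 0.367% of genes higher.

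With all 4 homecage libraries the same comparison gave -0.45 for *Fos* (SE 0.88, adjusted p = 0.882), -1.30 for *Fosb* (SE 0.70, adjusted p = 0.461), -0.17 for *Junb* (SE 0.48, adjusted p = 0.928), -0.76 for *Fosl2* (SE 0.28, adjusted p = 0.259) and 0.13 for *Jun* (SE 0.16, adjusted p = 0.784). One library thus turned the sign of *Fos*, *Fosb* and *Junb*, and 0 of 5 members passed with it, as did 0% of genes (edgeR). An unadjusted p under 0.05 was reached by 1 member and 13% of all genes, and DESeq2 called 0 members and gave no adjusted p for 3. Leaving out replicate 1 of the same group instead left *Fosl2* with -0.99 and an adjusted p of 0.0195 (edgeR), where 545 of 18332 genes were called lower, 2.97%.

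**Figure D4:**
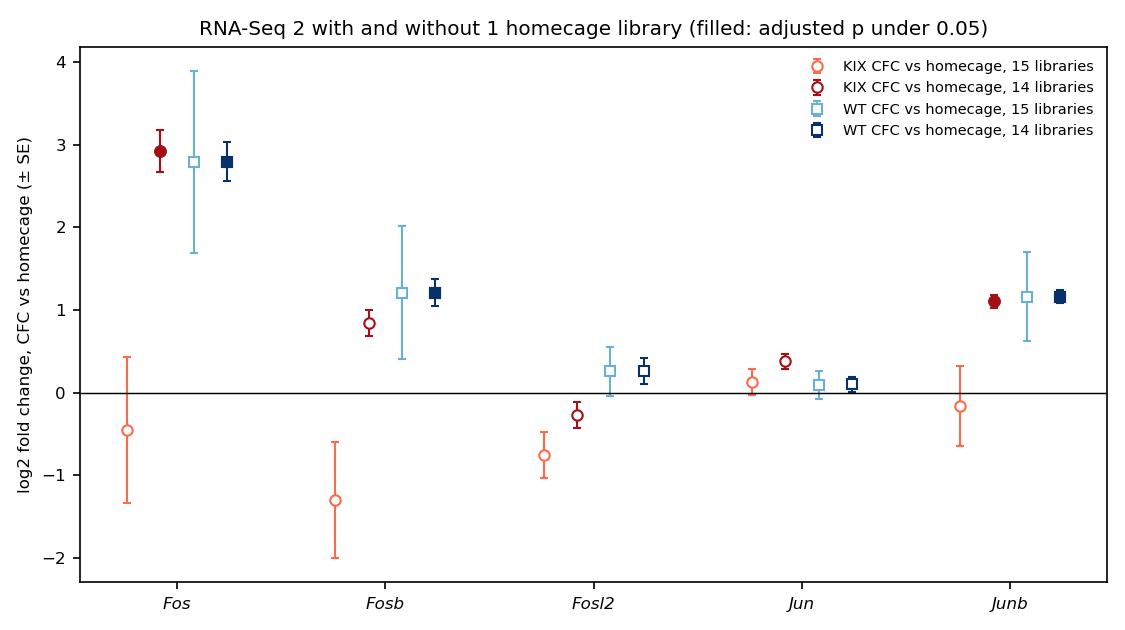
Log2 fold change of CFC over homecage mice with its SE (vertical axis) for 5 AP-1 genes (horizontal axis), with all 15 libraries of RNA-Seq 2 and with the 14 left without CBP KIX/KIX homecage replicate 3; filled symbols have an adjusted p under 0.05 (edgeR). The *Fos* value of CBP KIX/KIX mice goes from -0.45 to 2.92, while that of WT mice is 2.79 in both and its SE goes from 1.10 to 0.24.

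After learning, the means of 4 of the 5 members were lower in the mutants in each experiment, and that of *Jun* differed little. In the fit of both experiments with 4 RUVr factors, *Fos* had a log2 fold change of -0.51 (SE 0.06, adjusted p = 0.000802), *Fosl2* -0.38 (SE 0.05, adjusted p = 0.00215), *Fosb* -0.35 (SE 0.06, adjusted p = 0.0101) and *Junb* -0.31 (SE 0.04, adjusted p = 0.000641, all edgeR's quasi-likelihood test). *Jun* had 0.09 (SE 0.04, adjusted p = 0.269). Each of the 4 lower genes was below the WT mean of its experiment in 7 of 7 CBP KIX/KIX mice, and *Jun* was above it in 6 of 7. Of the 20496 genes tested 1.61% were called lower and 1.08% higher. The median over the 5 members was -0.35, beside -0.01 over all genes tested.

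These 4 calls rested on the RUVr factors. Without them the log2 fold changes were -0.51 for *Fos*, -0.37 for *Fosl2*, -0.35 for *Fosb* and -0.32 for *Junb*, but 0 of 5 members passed beside 0.0146% of genes called lower (edgeR), with adjusted p-values of 0.0631 for *Fos* and *Junb*, 0.237 for *Fosl2* and 0.297 for *Fosb*. The unadjusted p was under 0.05 for 4 members and 9.01% of all genes. DESeq2 with the factors called 4 members, and 2.82% of genes lower. With the factors and the replicate block all 5 passed, 4 lower and 1 higher, where 13.7% of genes were called. Over all genes the number called went from 551 to 4.

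By edgeR, 0 of 5 members passed for genotype after learning within either experiment alone. After the MWM *Fosb* was 11.2, 12.8 and 11.2 CPM in WT and 9.39, 7.08 and 10.2 CPM in CBP KIX/KIX mice. *Fosl2* was 137, 130 and 127 CPM in WT and 101, 68.6 and 126 CPM in CBP KIX/KIX mice, where replicate 2 was far below the other mutants and replicate 3 just under the lowest WT library. *Junb* was 161, 166 and 136 CPM in WT and 127, 109 and 139 CPM in CBP KIX/KIX mice, with overlap. *Fos*, *Fosb* and *Fosl2* lay apart between the genotypes, 3 of 5 members, as did 9.22% of 22408 genes in that direction. The log2 fold changes were -0.54 for *Fos* (SE 0.13), -0.40 for *Fosb* (SE 0.18), -0.41 for *Fosl2* (SE 0.19), -0.30 for *Junb* (SE 0.13) and -0.01 for *Jun* (SE 0.10). None passed (adjusted p = 0.813 for the first 4 and 0.981 for *Jun*, edgeR). *Fosl2* had -0.21 without CBP KIX/KIX MWM replicate 2 and -0.63 without replicate 3 of that group, and *Fosb* -0.27 and -0.51. An unadjusted p under 0.05 was reached by 3 of them and by 5.77% of all genes. DESeq2 called 0 members and 0.0314% of genes, and edgeR 0 of 22276 genes, 0%.

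After CFC *Junb* ran from 54.2 to 58.2 CPM in CBP KIX/KIX and from 65.2 to 75.9 CPM in WT mice, and *Fosl2* from 37.8 to 49 CPM and from 55.7 to 57.4 CPM. These 2 of 5 members lay apart, as did 1.23% of all genes in that direction. *Fos* at 16 to 22.4 CPM touched the lowest WT value of 22.2 CPM, and *Fosb* at 8.82 to 12.9 CPM overlapped the WT range of 11.8 to 15.6 CPM. *Jun* was 112, 126, 118 and 106 CPM against 110, 94.5, 101 and 105 CPM in WT mice, above the WT mean in 4 of 4. Without the homecage library that stood apart, the log2 fold changes were -0.49 for *Fos* (SE 0.19), -0.33 for *Fosl2* (SE 0.14), -0.33 for *Junb* (SE 0.07), -0.31 for *Fosb* (SE 0.14) and 0.18 for *Jun* (SE 0.09). All had an adjusted p of 1 by edgeR, where 2 of 19066 genes were called lower, 0.0105%. An unadjusted p under 0.05 was reached by 4 members and 2.41% of all genes, and DESeq2 called *Junb* (adjusted p = 0.0392), where it called 0.0315% lower. With all libraries the values were -0.48, -0.33, -0.33, -0.30 and 0.18, with 0 members at an unadjusted p under 0.05.

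No difference of the genotype effect between the experiments passed. The difference of the log2 fold changes, MWM minus CFC, lay between -0.19 for *Jun* (SE 0.13) and 0.03 for *Junb* (SE 0.14) without that library, with -0.06 for *Fos* (SE 0.26). The adjusted p was 0.965 or more for all 5 members (edgeR; 0 at an unadjusted p under 0.05), and the errors of *Fos*, *Fosb* and *Fosl2*, 0.24 to 0.26, allow sizeable differences. With that library the 5 values lay between -0.19 and 0.03 as well, with an adjusted p of 0.966 or more and an SE of 1.09 for *Fos*.

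CA1 markers (2 genes, sum) lay apart between the genotypes after the MWM, at 743 to 884 CPM in WT and 608 to 694 CPM in CBP KIX/KIX mice. After CFC they overlapped, at 250 to 307 and 216 to 260 CPM. Of these 2 genes 1 was called lower in the fit of both experiments with RUVr factors, and of 3 dentate markers 1 was called higher. Their part in the lower AP-1 values was not tested. Astrocyte markers (4 genes, sum) lay apart after the MWM, at 583 to 627 CPM in WT and 508 to 551 CPM in CBP KIX/KIX mice, and overlapped after CFC, at 622 to 680 and 573 to 655 CPM. Of these 4 genes 2 were called lower, *Gfap* among them with -0.29 (SE 0.04, adjusted p = 0.00235, edgeR), and 1 higher in the fit of both experiments, and their part was not tested either. Choroid plexus markers overlapped between the genotypes, at 195 to 1751 and 216 to 2890 CPM after the MWM and 36.2 to 4130 and 45 to 3855 CPM after CFC.

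**Figure D5:**
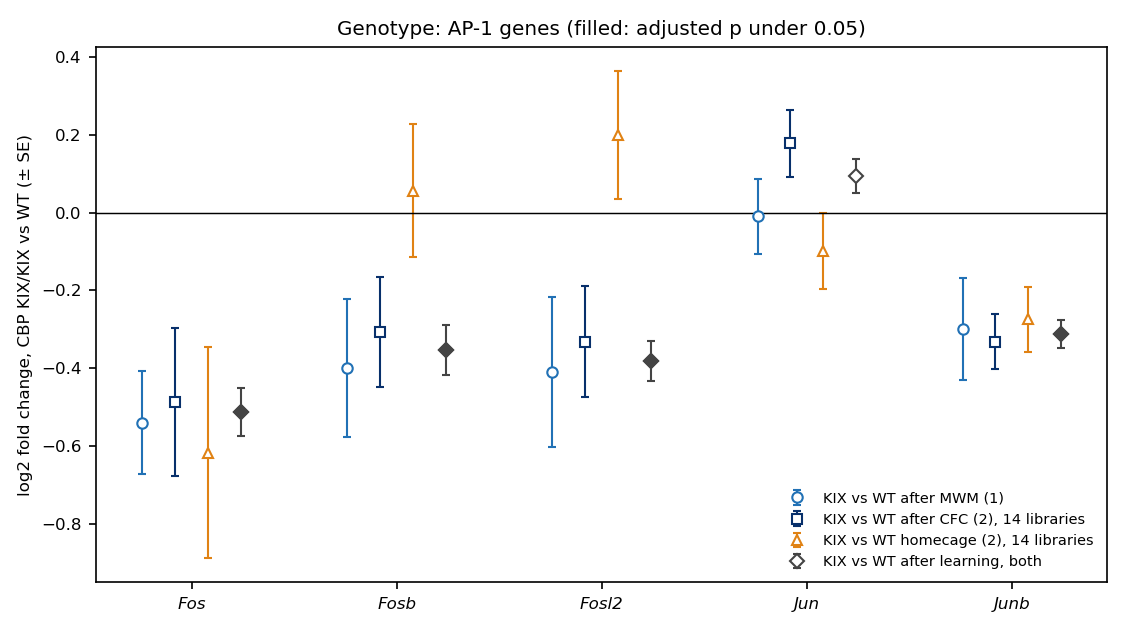
Log2 fold change of CBP KIX/KIX over WT mice with its SE (vertical axis) for 5 AP-1 genes (horizontal axis) after the MWM, after CFC, in the homecage and in the fit of both trained experiments; the RNA-Seq 2 comparisons leave out CBP KIX/KIX homecage replicate 3, and filled symbols have an adjusted p under 0.05 (edgeR). *Fos*, *Fosb*, *Fosl2* and *Junb* lie between -0.54 and -0.30 in the trained comparisons, and *Jun* between -0.01 and 0.18.

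In the homecage the members did not differ past the threshold between genotypes. Without replicate 3 *Fos* was 2.55, 1.64 and 4.32 CPM in CBP KIX/KIX and 3.09, 4.46 and 4.65 CPM in WT mice, a log2 difference of -0.62 (SE 0.27, unadjusted p = 0.0388, adjusted p = 0.679, edgeR's quasi-likelihood test). *Junb* differed by -0.27 (SE 0.08, unadjusted p = 0.00549, adjusted p = 0.653), a size near that seen after CFC. Replicate 3 was the highest mutant homecage library for each tested member and was left out for those values. Leaving it out lowers the mutant means and narrows the spread. These values are thus no independent support for a genotype difference in the homecage. *Fosb* had 0.06 (SE 0.17), *Fosl2* 0.20 (SE 0.16) and *Jun* -0.10 (SE 0.10). Thus 0 of 5 passed, beside 0.00524% of genes, 2 members and 7.21% of genes had an unadjusted p under 0.05, and DESeq2 called 0 members. With replicate 3 all 5 values were positive, from 0.15 for *Jun* (SE 0.17) to 2.76 for *Fos* (SE 1.10, adjusted p = 0.443), with 2.20 for *Fosb*, 1.00 for *Junb* and 0.69 for *Fosl2*, and again 0 members passed, beside 0.0265% of genes.

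Whether training acts differently in the genotypes was asked by the interaction within RNA-Seq 2. Without replicate 3 the difference of the log2 changes, CBP KIX/KIX minus WT, was 0.13 for *Fos* (SE 0.33, unadjusted p = 0.698), -0.36 for *Fosb* (SE 0.22, unadjusted p = 0.123), -0.53 for *Fosl2* (SE 0.22, unadjusted p = 0.0283), 0.28 for *Jun* (SE 0.13, unadjusted p = 0.0515) and -0.06 for *Junb* (SE 0.11, unadjusted p = 0.611). All adjusted p were 1 (edgeR), DESeq2 called 0 members, and an unadjusted p under 0.05 was reached by 1 member and 3.52% of all genes. With the library, the difference was -3.24 for *Fos*, -2.51 for *Fosb*, -1.33 for *Junb*, -1.01 for *Fosl2* (adjusted p = 0.95 for each, edgeR) and 0.03 for *Jun*. Again 0 of 5 passed, and an unadjusted p under 0.05 was reached by 3 members, *Fos*, *Fosb* and *Fosl2*, and by 4.79% of all genes. The comparisons of training, genotype and their interaction share libraries. The interaction without replicate 3 rests on the same choice of library, made on the values of these members.

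Of the other genes around AP-1, 1 passed in the fits of both experiments, *Zfp36l2* with learning, a call lost without the RUVr factors. Among 15 partners with the same leucine zipper, 13 of which were tested, 0 passed for learning in WT mice or for genotype after learning. *Mafk* had 0.15 (adjusted p = 0.15) and *Maff*, a small Maf protein, 0.41 (adjusted p = 0.235) with learning, and *Maff* -0.45 (adjusted p = 0.104) and *Atf2* 0.10 (adjusted p = 0.0719) with genotype. Of 22 kinases and SRF-type factors that act upstream, all tested, 0 passed in either fit, with *Rps6ka2* at -0.16 (adjusted p = 0.0875) and *Mef2d* at -0.12 (adjusted p = 0.105) with learning, and *Mef2a* at 0.08 (adjusted p = 0.0995) and *Mrtfa* at -0.09 (adjusted p = 0.116) with genotype.

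Of 10 CREB family members and coactivators 0 passed in either fit (edgeR, with RUVr factors). *Creb1* had 0.12 (adjusted p = 0.105) and *Crtc2* -0.14 (adjusted p = 0.132) with learning, and *Myb* had 0.39 (adjusted p = 0.297) and *Kmt2a* -0.11 (adjusted p = 0.31) with genotype. Of 10 genes for the turnover of AP-1 messages and proteins 1 passed for learning. *Zfp36l2*, which binds AU-rich elements and speeds the decay of messages, fell by 0.33 on the log2 scale (SE 0.06, adjusted p = 0.0207). In that fit 120 of 20901 genes were called lower. Without the RUVr factors 0 genes were called lower, so this call rested on the factors. Genotype gave 0 calls in that list, with *Cop1* at 0.08 (adjusted p = 0.142) and *Fbxw7* at 0.04 (adjusted p = 0.664).

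Of 13 genes known as AP-1 targets in other settings, 12 were tested and 0 passed in either fit. *Scg2* had 0.12 (adjusted p = 0.135) and *Ccnd1* 0.09 (adjusted p = 0.248) with learning, and *Ccnd1* -0.18 (adjusted p = 0.063) and *Penk* 0.12 (adjusted p = 0.344) with genotype. Median log2 fold changes of the 5 lists lay between -0.05 and 0.02 for learning and between -0.07 and 0.02 for genotype, beside -0.02 and -0.01 over all genes tested. In the fits within an experiment 0 genes of the 5 lists passed, with or without the library that stood apart. *Penk*, which encodes proenkephalin, had the lowest p among them, at 2.02 for CBP KIX/KIX against WT homecage mice without replicate 3 (SE 0.39, adjusted p = 0.27). It ranged from 28.5 to 161 CPM within the CBP KIX/KIX homecage group and from 20.5 to 27.1 CPM in the WT homecage.

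Across libraries the profile of the members was most like those of other immediate early genes. Over 24 libraries, after the mean of each experiment was taken out of log2 CPM, Pearson's r with the mean profile of the 5 members was 0.95 for *Ier2*, 0.94 for *Arc*, 0.94 for *Nr4a1*, 0.94 for *Egr2* and 0.94 for *Egr1*. Without CBP KIX/KIX homecage replicate 3 the 5 highest were *Arc*, *Egr2*, *Ier2*, *Egr1* and *Dusp1*, between 0.91 and 0.94 over 23 libraries. *Egr2* was nearest to *Fos* (r = 0.98), *Nr4a1* to *Junb* (0.98), *Ier2* to *Fosb* (0.90) and *Stk40* to *Fosl2* (0.93), each also without that library, at 0.97, 0.97, 0.91 and 0.89. The gene nearest to *Jun* changed from *Egr4* (0.82) to *Rbm24* (0.83). These correlations describe libraries that share depth, experiment and group, and carry no test.

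The members split in the same way among themselves. Over the 23 libraries *Fos* followed *Junb* with r = 0.95 and *Fosb* with 0.89, and *Fosb* followed *Junb* with 0.87. *Jun* had 0.51 with *Fos*, 0.59 with *Junb* and 0.44 with *Fosb*. *Fosl2* had 0.42 to *Fosb*, near the value of *Jun* with *Fosb*, and lower values to the others: 0.14 to *Fos*, 0.13 to *Junb* and -0.22 to *Jun*. With the library that stood apart *Fosl2* had 0.77 to *Fosb*, 0.45 to *Fos*, 0.53 to *Junb* and 0.36 to *Jun*.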

How the data were processed

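The authors deposited raw counts per gene; the submitters' processing notes name STAR, SAMtools 1.6 and featureCounts 1.4.4. Of 51826 identifiers, 51633 were in GENCODE M21. Counts were tested in R 4.3.3 with edgeR 4.0.16 (filterByExpr, upper-quartile normalisation, glmQLFit, glmQLFTest) and Benjamini-Hochberg adjustment over all genes tested, with a threshold of 0.05. Fits within an experiment used all its groups; fits over both used the experiment as a batch and RUVr factors in an own implementation, 3 for learning and 4 for genotype. CPM are upper-quartile normalised. The scripts were tested on simulated data. Samples with the same replicate number deviated together (r over 0.1 in every pair) for WT MWM with WT homecage (0.100 to 0.183), WT CFC with WT homecage (0.189 to 0.375) and CBP KIX/KIX CFC with homecage (0.146 to 0.248), so blocked values are given where they change a call. Some unlike numbers in RNA-Seq 2 did so too, such as CBP KIX/KIX CFC replicate 1 with homecage replicate 2 (0.213), and others did not, such as WT homecage replicate 1 with WT CFC replicate 2 (-0.0812). Replicates 1 and 2 of RNA-Seq 2 held 30143949 to 46056290 counts, and replicates 3 and 4 held 15385836 to 20568337. The part of this split in depth was not tested. Alternatives were DESeq2 1.42.0, TMM, no filter on low counts, other RUVr factors, GC-content normalisation, 2-group fits and each library left out; fits without CBP KIX/KIX homecage replicate 3 beyond its own group were chosen after seeing the data. Named were all members, *Crebbp*, and from each list at most 4 genes called or else 2 with the lowest p. The members and lists were chosen with earlier results of these data known. The floor of 3 counts covers counting error only, whereas SDs and SEs hold the spread between libraries.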

Additional observations from a re-analysis of the deposited data

Results flagged for a closer look

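Within groups of 4 libraries, a library was marked where its gap to the nearest other, divided by the range of the group, was above Dixon's critical value for 4 samples. Of 15 sets of values 4 were marked. Chance gives about 1 in 20 for independent sets. These sets are members measured in the same libraries, so the count cannot be set against that rate. In CBP KIX/KIX homecage mice replicate 3 was marked as the highest for *Fos* (0.974), *Fosb* (0.975) and *Junb* (0.962). For *Fos* in WT mice after CFC the lowest library was marked (0.937), replicate 2 at 22.2 CPM beside 29.7 to 30.2 CPM in the other 3.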

How the results depend on the processing

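Counts below are members called (adjusted p under 0.05) of 5. For WT mice after the MWM against homecage, 1 in the report, the count was 2 with DESeq2 or with no filter on low counts. It was 0 to 2 with each library left out. Over all genes DESeq2 called 39 of 22276 higher, and the fit with no filter 27 of 35895. The left-out count of 2 came without WT homecage replicate 3, where 637 of 22563 genes were higher. For CBP KIX/KIX MWM against WT homecage mice it was 2 with DESeq2, 1 with no filter and 0 to 1 with each library left out. Over all genes DESeq2 called 1340 of 22276 higher, and the fit with no filter 415 of 35895. The left-out count of 1 came without WT homecage replicate 3 as well, where 2114 of 22563 genes were higher. For WT CFC against homecage it was 3 in a fit of the 2 groups alone, where 21 of 18115 genes were higher. With each library left out it was 0 to 3, and for CBP KIX/KIX CFC against their homecage mice 0 to 2. The 3 and the 2 came without CBP KIX/KIX homecage replicate 3, where 17 and 15 of 19066 genes were higher. Without CBP KIX/KIX homecage replicate 3, a setting partly chosen after seeing the data, DESeq2 called 4 for CFC against homecage in CBP KIX/KIX mice and 1 for genotype after CFC. Of 19066 genes 70 were called higher in the former and 6 lower in the latter. For genotype after learning, 4 in the report, it was 0 with 0 RUVr factors and 2 with 1 factor. Of 20496 genes 3 and 54 were called lower in these fits.

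With replicate number as a block the count was 0 for WT MWM against homecage, and 1 for genotype after learning without RUVr factors. In these fits 0 of 22276 genes were called higher and 7 of 20496 lower. Same-numbered WT and CBP KIX/KIX libraries after the MWM had r of -0.158 to -0.015. Unlike numbers in RNA-Seq 1 ran from -0.14 to 0.27, so these few values cannot tell whether the numbers mark samples handled together. After CFC r was 0.377, -0.0896, 0.206 and 0.179 for replicates 1 to 4. With the factors the block called 5 for genotype after learning, 4 lower and 1 higher. There 2803 of 20496 genes were called beside 551 in the report. The block turned the values of *Fos* to 0.71 and of *Junb* to 0.18 for CBP KIX/KIX CFC against homecage with all libraries, and of *Fosb* to -0.0091 for genotype in the homecage without replicate 3. It changed no call of a member beyond these and the ones given with the results.

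*Jun* in RNA-Seq 1 lay near 0 and turned sign with the scaling. With TMM it was 0.043 (WT MWM against homecage), 0.014 (genotype after the MWM) and 0.058 (CBP KIX/KIX MWM against WT homecage), with DESeq2 0.055, 0.0076 and 0.063, and with no filter 0.021 for the first. With each library left out, *Jun* ranged from -0.057 to 0.043, from -0.068 to 0.065 and from -0.076 to 0.057 in these 3 comparisons. *Fosl2* ranged from -0.088 to 0.25 in the first and *Fosb* from -0.33 to 0.00067 in the third.

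For CBP KIX/KIX CFC against homecage, leaving out 1 library at a time gave -0.88 to 2.92 for *Fos*, -1.66 to 0.85 for *Fosb*, -0.46 to 1.11 for *Junb* and -0.0089 to 0.38 for *Jun*. For genotype in the homecage it gave -0.62 to 3.19 for *Fos*, -0.10 to 0.29 for *Jun* and -0.27 to 1.29 for *Junb*, and for the interaction -3.68 to 0.13 for *Fos* and -0.11 to 0.28 for *Jun*. The difference of the genotype effect between experiments ranged from -0.16 to 0.048 for *Fos*, -0.20 to 0.046 for *Fosb*, -0.30 to 0.13 for *Fosl2* and -0.053 to 0.13 for *Junb*. Among the values of single members under the alternatives, 41 turned sign, 16 lost and 21 gained a call, and 927 kept both.

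Over all genes the calls ranged from 4 to 2803 for genotype after learning and from 0 to 2418 for WT MWM against homecage. The cause of these changes was not tested. Depth limits *Fos* most, with 76 counts in its lowest library.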
